A study of Sus scrofa with 14 samples.

Results

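Circular RNAs (circRNAs) of the pig cerebellum at E115 (embryonic days are written with an E) were compared with those of the pig cortex on the same embryonic day, in 2 of the 14 samples of the series. Each side was 1 library of 1 dissected fetal brain region, with no allele, strain or treatment named in the labels and no statement on which or how many animals gave the tissue. The circRNAs were the lines of a table of 5 brain regions in which the reads of the 10 libraries add up to the stated total, which held for 3776 of 3967 lines. In those lines the E115 cerebellum had 6056 reads and the E115 cortex 8036. Libraries of the brain stem, basal ganglia and hippocampus at E115, and of the cerebellum and cortex at E60, are given beside the pair. With 1 library a side, no difference has a replicate check, and every interval below is a 95% interval that covers counting error only.

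A circRNA is formed when the splicing machinery joins the end of an exon back to the start of the same or an earlier exon, and it is recognised by reads that cross this backsplice junction. Lacking free ends, circRNAs resist exonucleases and are long-lived, and in mammals they are abundant in brain, many of them from genes with synaptic functions. The best studied is the circRNA of the CDR1 locus, which in human and mouse carries many binding sites for the microRNA miR-7. E115 is close to birth in the pig. Around birth the mammalian cerebellum is rich in granule cells, small neurons that are still being formed in its outer layer, while most neurons of the cortex have already been formed.

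The 2 libraries differed in size. The library totals, recovered from the deposited reads and RPM values, were 15.7 M reads for the E115 cerebellum and 53.99 M for the E115 cortex, and a circRNA with 0 reads could thus have had up to 0.191 RPM (circRNA reads per 1 M library reads) in the cerebellum and 0.0556 RPM in the cortex (3 reads). The FPKM values of host genes deposited in the same table gave a conflict of headings. Across 1446 host genes, the column headed Cortex E115 correlated less with the E115 cortex FPKM of the separate table of forebrain and cortex (Pearson r = 0.737) than the column headed Hippocampus E115 did (r = 0.976). The E60 cortex FPKM of that table gave the same order, with r = 0.707 for the heading Cortex E60 and r = 0.959 for Hippocampus E60. CAMK2A, a protein kinase abundant in excitatory neurons of the forebrain, stood at 6.42 FPKM under the heading Cortex E115, at 191.5 FPKM under Hippocampus E115 and at 119 FPKM in the cortex table. The read columns gave no such conflict, since the E115 and E60 cortex reads were identical in all 2341 circRNAs that add up in both tables. The FPKM column headed Cerebellum E115 held the highest value of the 5 E115 headings for all 5 genes of the granule cell marker list that are hosts in the table, among them RELN (118 FPKM) and PAX6 (54.5 FPKM). The other genes of that list, and all genes of the microglia and choroid plexus lists, are not hosts in the table and were not checked.

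The cerebellum carried more circRNA for its sequencing depth than the cortex. The summed level was 385.5 RPM (interval 375.9 to 395.3) in the E115 cerebellum and 148.8 RPM (145.6 to 152.1) in the E115 cortex, a ratio of 2.59 (2.50 to 2.68). The brain stem had 132.8 RPM, the basal ganglia 125.4 RPM and the hippocampus 150.7 RPM, so the cerebellum stood above all 4 other E115 regions, which lay between 125.4 and 150.7 RPM. The E115 basal ganglia had 0 reads in every line left out and may lack reads. The cerebellum was 2.90 times as high as the brain stem, 3.07 times as high as the basal ganglia and 2.56 times as high as the hippocampus. At E60 the order was the opposite, with 151.6 RPM in the cerebellum and 685.2 RPM in the cortex (ratio 0.221, interval 0.210 to 0.233). In a bulk sample, fewer cells of a type and less RNA per cell cannot be told apart.

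**Figure D1:**
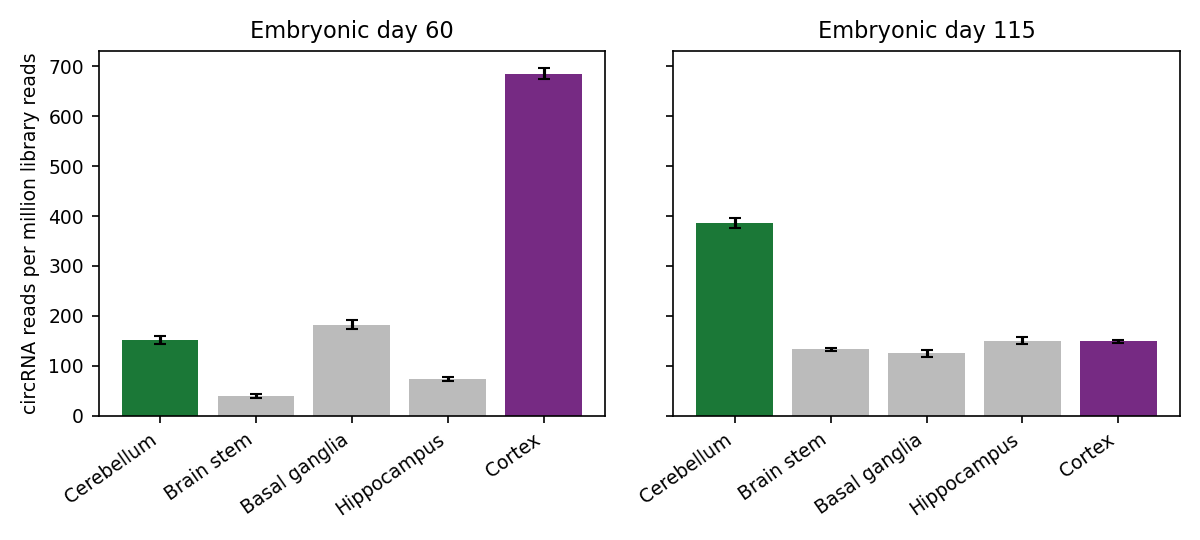
Summed circRNA level in RPM (linear axis from 0) in the 5 brain regions at E60 (left) and E115 (right), 1 library a bar, with 95% exact Poisson intervals. At E115 the cerebellum stands at 385.5 RPM above the cortex at 148.8 RPM and the other 3 regions, while at E60 the cerebellum stands at 151.6 RPM below the cortex at 685.2 RPM.

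The higher level came with a similar number of circRNAs. At least 2 reads were found for 976 circRNAs in the cerebellum and 1200 in the cortex, and the cortex would have had 926 at the cerebellum's 6056 circRNA reads. Both libraries detected 457 of them, which is 46.8% of those of the cerebellum and 38.1% of those of the cortex. The reads were spread about as evenly, with 15.1% of circRNA reads in the 10 most-read circRNAs of the cerebellum and 15.7% in those of the cortex. Of the 976 circRNAs detected in the cerebellum 329 had 0 cortex reads, and of the 1200 detected in the cortex 559 had 0 cerebellum reads. Over all 3776 lines, 46.1% had 0 cortex reads and 56.1% had 0 cerebellum reads. Whether these zeros come from region or from depth was not tested.

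With at least 10 reads on 1 side and 0 on the other, 4 circRNAs were found in the cerebellum and 9 in the cortex. Those of the cerebellum came from EPB41 (16 reads), which encodes a protein of the membrane skeleton, ZNHIT6 (13), an assembly factor of small nucleolar ribonucleoproteins, ADCK3 (10), a mitochondrial protein needed for coenzyme Q, and ROCK1 (10), a kinase that acts below RhoA. The EPB41 circRNA, which also overlaps ENSSSCG00000026263, had 0 reads in the other 3 E115 regions too. Those of the cortex came from ENSSSCG00000027460 (35 reads), ENSSSCG00000006881 (18), PLCB1 (14), FHOD3 (12), C1orf27 (12), ENSSSCG00000030611 (12), a line named U6 (12), AGGF1 (11) and VEZT (10). PLCB1 is a phospholipase C that acts in receptor signalling, FHOD3 a formin that builds actin filaments and VEZT a protein of adherens junctions. The circRNA of ENSSSCG00000006881 was read more often in the brain stem (34 reads), whose library was the smaller one (37.7 M reads). These genes were chosen by their values and get no ratio here.

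For single circRNAs, ratios were read among the 109 with at least 20 reads in the 2 libraries together, which held 39.1% of the circRNA reads of the cerebellum and 42.8% of those of the cortex. A circRNA was past the fold at 4 times or more in either direction, with 0.5 reads added to each count. The level scale divides reads by the library total and thus carries the 2.59-fold difference in summed circRNA, 1.37 on the log2 scale, and the share scale divides reads by the circRNA reads of the library and takes that difference out.

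On the level scale, 81 of the 109 circRNAs were higher in the cerebellum (74.3%) and 28 were lower (25.7%), with a median log2 ratio of 1.28. Past 4-fold, 37 were higher (33.9%) and 4 lower (3.67%). The split depends on the scaling. With edgeR's TMM factors 45 of the 109 were higher (41.3%), and 6 were past 4-fold higher and 20 lower. DESeq2's size factors came out at 1 for both libraries, so they left the reads as counted, from libraries of 15.7 M and 53.99 M reads. On these unscaled reads 42 were higher (38.5%), and 5 were past 4-fold higher and 23 lower. On the share scale, 51 were higher in the cerebellum (46.8%) and 58 lower (53.2%), with a median log2 ratio of -0.09, and 7 were past 4-fold higher (6.42%) and 17 lower (15.6%). The intervals of 26 share ratios lay wholly above 1, 33 lay wholly below 1 and 50 included 1. The cerebellum thus held a larger summed level, while the circRNAs that took a smaller part of its circRNA pool by 4-fold or more outnumbered those that took a larger part. With no read minimum this order turned, at 370 higher and 259 lower on the share scale. Of the 5 E115 libraries, the cerebellum had the highest level of 70 of the 109 circRNAs and the cortex of 22. The 109 were kept by their reads in these 2 libraries, which leaves out circRNAs read mainly in the other regions. The cerebellum also had the highest summed level, so the count is no measure of regional preference. Just inside the upper threshold on the share scale was ZFPM2 (log2 ratio 2.15) and just outside it were RIMS1 (1.90) and ZFX (1.81). Just inside the lower one were ATRX (-2.06) and the circRNA overlapping PRKAR2A (-2.07), and just outside it ENSSSCG00000025844 (-1.96) and ATRNL1 (-1.91).

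**Figure D2:**
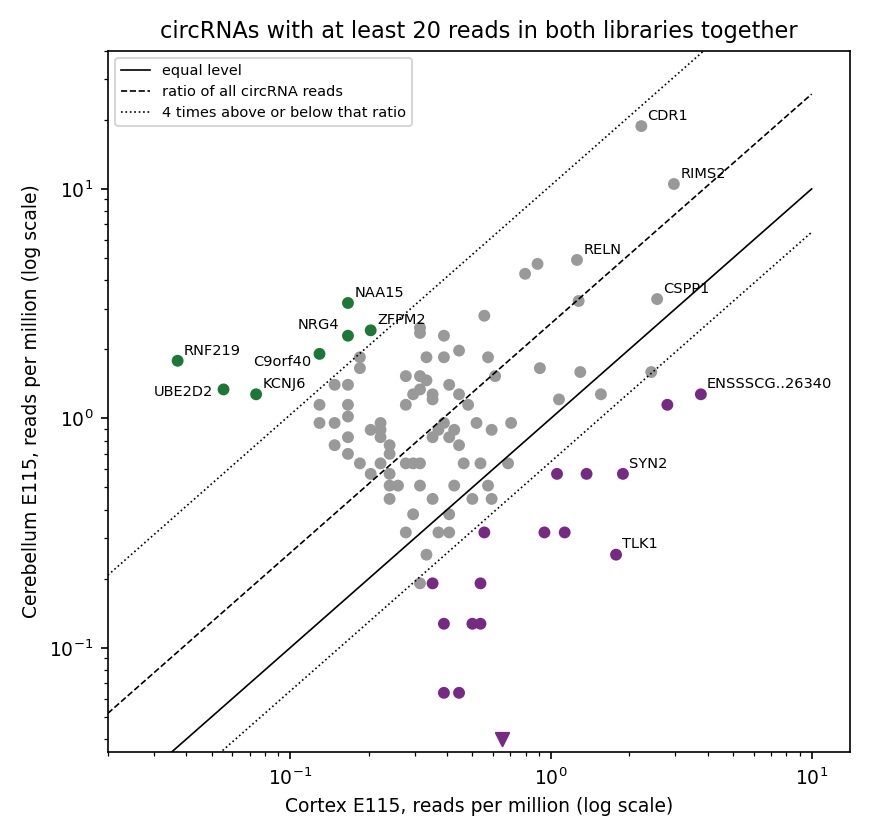
Level in the E115 cerebellum (vertical) against the E115 cortex (horizontal) of the 109 circRNAs with at least 20 reads in both libraries together, in RPM on log axes, 1 point a circRNA (green and purple: 4-fold or more higher or lower in the cerebellum on the share scale; triangle: 0 cerebellum reads). The 7 green points lie above the upper dotted line, 4 times over the ratio of all circRNA reads of 2.59 (dashed), and the 17 purple points lie below the lower one.

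The 10 circRNAs with the highest ratios, kept and ranked by their cerebellum and cortex reads, each had their highest E115 level in the cerebellum. RNF219, a RING finger protein of the ubiquitin system, gave the circRNA with the highest ratio (chr11:55451765-55462575, minus strand). It had 1.78 RPM in the E115 cerebellum (28 reads), 0.159 in the brain stem, 0.414 in the basal ganglia, 0.0873 in the hippocampus and 0.0370 in the cortex (2 reads). The cerebellum was thus well above all 4 other regions, and its level was 48.1 times that of the cortex (interval 12.1 to 417) and its share 18.6 times (4.68 to 161). UBE2D2 encodes a ubiquitin-conjugating enzyme, and its circRNA (chr2:147428027-147434804, minus strand) had 1.34 RPM in the cerebellum (21 reads), 0 reads in the brain stem, basal ganglia and hippocampus and 0.0556 RPM in the cortex (3 reads). Its level ratio was 24.1 (7.18 to 126) and its share ratio 9.29 (2.77 to 48.6). NAA15 is the auxiliary subunit of the enzyme that acetylates the N-terminus of many proteins. The NAA15 circRNA (chr8:93287563-93308599, minus strand) had 3.18 RPM in the cerebellum (50 reads), 0.372 in the brain stem, 0 reads in the basal ganglia, 0.262 RPM in the hippocampus and 0.167 RPM in the cortex (9 reads). It was also the eighth most-read circRNA of the cerebellum, with a level ratio of 19.1 (9.30 to 44.2).

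KCNJ6 encodes an inwardly rectifying potassium channel opened by G proteins, whose mutation in the weaver mouse kills cerebellar granule cells. Its circRNA (chr13:211425081-211426001, minus strand), which also overlaps ENSSSCG00000027965, had 1.27 RPM in the cerebellum (20 reads), 0.0797 in the brain stem, 0 reads in the basal ganglia and hippocampus and 0.0741 RPM in the cortex (4 reads), a level ratio of 17.2 (5.76 to 69.1). NRG4 encodes a ligand of the receptor ERBB4, and its circRNA (chr7:60799836-60801794, plus strand) had 2.29 RPM in the cerebellum (36 reads), 0.0266 in the brain stem, 0 reads in the basal ganglia, 0.175 RPM in the hippocampus and 0.167 RPM in the cortex (9 reads), a level ratio of 13.7 (6.5 to 32.5). In both, the cerebellum stood highest, with at most 3 reads in each of the 3 other regions beside the cortex. A count of 0 leaves up to 0.310 RPM in the basal ganglia library and 0.262 RPM in that of the hippocampus. Zeros there thus do not place these regions below the cortex. ZFPM2, a cofactor of GATA transcription factors, gave a circRNA (chr4:34617495-34641574, minus strand) with 2.42 RPM in the cerebellum (38 reads), 0.159 in the brain stem, 0 reads in the basal ganglia and hippocampus and 0.204 RPM in the cortex (11 reads), a level ratio of 11.9 (5.95 to 25.8). The C9orf40 circRNA (chr1:254898556-254937077, minus strand) had 1.91 RPM in the cerebellum (30 reads), 0.372 in the brain stem, 0.103 in the basal ganglia, 0.786 in the hippocampus and 0.130 in the cortex (7 reads), a level ratio of 14.7 (6.34 to 39.7). Here the hippocampus was second, at 9 reads.

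The last 3 of the 10 were past 4-fold on the level scale only. A RIMS1 circRNA (chr1:58468249-58490977, plus strand), from a gene whose protein organises the presynaptic active zone, had 1.85 RPM in the cerebellum (29 reads), 0.611 in the brain stem, 0.414 in the basal ganglia, 0.0873 in the hippocampus and 0.185 in the cortex (10 reads). Its level ratio was 9.97 (4.72 to 22.9) and its share ratio 3.85 (1.82 to 8.85). ZFX, a transcription factor encoded on the X chromosome, gave a circRNA (chrX:21717559-21721310, plus strand) with 1.40 RPM in the cerebellum (22 reads), 0.372 in the brain stem, 0.207 in the basal ganglia, 0 reads in the hippocampus and 0.148 RPM in the cortex (8 reads). For PHIP, a bromodomain protein, the circRNA (chr1:97905979-97924771, plus strand) had 1.66 RPM in the cerebellum (26 reads), 0.717 in the brain stem, 1.14 in the basal ganglia, 0.349 in the hippocampus and 0.185 in the cortex (10 reads). The PHIP circRNA was the least confined of the 10 to the cerebellum, with the basal ganglia close behind.

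The 10 circRNAs with the lowest ratios differed more on the share scale than on the level scale, where 4 were past 4-fold lower with 0.5 reads added and 3 with the circRNA without cerebellum reads set at its bound. TLK1, a kinase that acts on chromatin assembly during DNA replication, gave a circRNA (chr15:86639052-86671532, minus strand) with 0.255 RPM in the cerebellum (4 reads), 0.664 in the brain stem, 0.517 in the basal ganglia, 0.437 in the hippocampus and 1.78 in the cortex (96 reads). The cerebellum was the lowest and the cortex the highest of the 5, with a level ratio of 0.143 (0.0382 to 0.379) and a share ratio of 0.0553 (0.0148 to 0.146). SYN2 encodes synapsin II, a phosphoprotein of synaptic vesicles, and its circRNA (chr13:75379989-75404735, plus strand) had 0.573 RPM in the cerebellum (9 reads), 3.61 in the brain stem, 2.17 in the basal ganglia, 0.699 in the hippocampus and 1.89 in the cortex (102 reads). The brain stem was thus the highest region for SYN2 and the hippocampus was nearly as low as the cerebellum. Against the cortex, the SYN2 level ratio was 0.303 (0.135 to 0.599).

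MSH3 is a DNA mismatch repair protein, and its circRNA (chr2:91264177-91335022, plus strand) had 0.318 RPM in the cerebellum (5 reads), 0.903 in the brain stem, 0.310 in the basal ganglia, 0.699 in the hippocampus and 0.945 in the cortex (51 reads). The DOCK3 circRNA (chr13:36383856-36428161, plus strand), from a gene for a neuronal activator of Rac, had 0.127 RPM in the cerebellum (2 reads), 0 reads in the brain stem, basal ganglia and hippocampus and 0.50 RPM in the cortex (27 reads). Among the E115 regions the DOCK3 circRNA had nearly all its reads in the cortex, the largest library, while MSH3 was also high in the brain stem. For DOCK3, 0 reads leave up to 0.310 RPM in the basal ganglia and 0.262 RPM in the hippocampus. The level ratios were 0.337 for MSH3 (0.105 to 0.839) and 0.255 for DOCK3 (0.0293 to 1.01), so the interval for DOCK3 reached 1 on the level scale.

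SUPT20H, a subunit of the SAGA coactivator complex, gave a circRNA (chr11:12807920-12827332, minus strand) with 0.0637 RPM in the cerebellum (1 read), 0.159 in the brain stem, 0.310 in the basal ganglia, 0.175 in the hippocampus and 0.389 in the cortex (21 reads). Its level ratio of 0.164 had an interval that reached 1 (0.00396 to 1.02). A line named U6 (chr8:19208010-19225663, plus strand) had 0.0637 RPM in the cerebellum (1 read), 0.0797 in the brain stem, 0 reads in the basal ganglia, 0.175 RPM in the hippocampus and 0.445 RPM in the cortex (24 reads). U6 is a spliceosomal RNA with many genomic copies, and 37 lines of the table carry its name, so this host is uncertain. Host names in the table come from overlap of the junction with annotated genes. The other 3 had Ensembl gene IDs with no symbol in the tables used here. ENSSSCG00000026340 gave the most-read circRNA of the cortex (chr6:73334893-73430424, minus strand), with 1.27 RPM in the cerebellum (20 reads), 2.60 in the brain stem, 1.65 in the basal ganglia, 2.10 in the hippocampus and 3.76 in the cortex (203 reads), a level ratio of 0.339 (0.203 to 0.537). For ENSSSCG00000022013 (chr4:67861336-67893087, minus strand), the circRNA had 0.318 RPM in the cerebellum (5 reads), 0.850 in the brain stem, 0.930 in the basal ganglia, 0.524 in the hippocampus and 1.13 in the cortex (61 reads). The cerebellum was the lowest region for both. The circRNA of ENSSSCG00000027460 (chr5:60475998-60517522, minus strand) had 0 reads in the cerebellum and hippocampus, 0.106 RPM in the brain stem, 0.620 in the basal ganglia and 0.648 in the cortex (35 reads). Set against 3 reads as the upper limit of a count of 0 in the cerebellum library, it was at least 3.39-fold lower in the cerebellum on the level scale and at least 8.79-fold lower on the share scale.

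**Figure D3:**
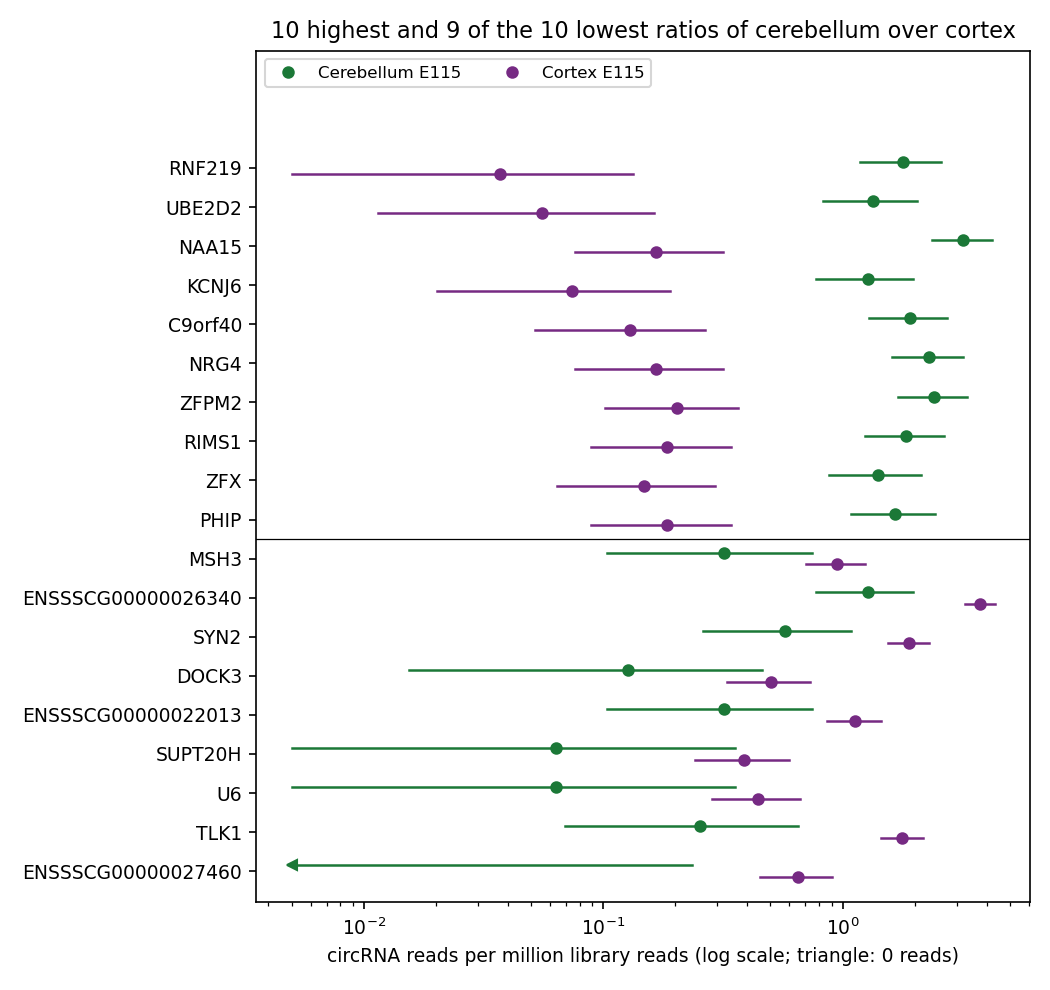
Levels in RPM (log axis) in the E115 cerebellum (green) and the E115 cortex (purple) of the 10 circRNAs with the highest (above the line) and 9 of the 10 with the lowest (below it) ratios, with 95% exact Poisson intervals cut at the left end of the axis. The intervals of both libraries are apart for all 10 upper circRNAs, while below the line those of MSH3, DOCK3, SUPT20H and U6 overlap; the triangle marks 0 cerebellum reads.

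The circRNA named CDR1 (chrX:131493485-131495109) was the most-read one of the cerebellum, with 18.8 RPM in the E115 cerebellum (295 reads), 4.35 in the brain stem, 2.38 in the basal ganglia, 3.23 in the hippocampus and 2.22 in the cortex (120 reads). It made up 4.87% of the circRNA reads of the cerebellum and 1.49% of those of the cortex, with a level ratio of 8.45 (6.81 to 10.5) and a share ratio of 3.26 (2.63 to 4.07). The table lists it on the plus strand, and whether it is sense or antisense to the annotated gene was not established here. RIMS2, a further gene of the presynaptic active zone, was second (chr4:35844936-35911000), with 10.5 RPM in the cerebellum (165 reads), 1.62 in the brain stem, 3.0 in the basal ganglia, 1.40 in the hippocampus and 2.96 in the cortex (160 reads). Its share ratio was only 1.37 (1.09 to 1.71), so most of its level ratio of 3.54 (2.83 to 4.43) followed the summed level.

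RELN encodes reelin, the secreted protein that guides neuron migration and is made by cerebellar granule cells, and its circRNA (chr9:114262312-114333183) had 4.90 RPM in the cerebellum (77 reads), 0.982 in the brain stem, 0.827 in the basal ganglia, 0.437 in the hippocampus and 1.26 in the cortex (68 reads). The cerebellum was the highest region for RELN, with a share ratio of 1.5 (1.07 to 2.11). Further circRNAs among the 10 most-read of the cerebellum came from ZMYM4 (67 reads in the cerebellum and 43 in the cortex), CSPP1 (52 and 138), CDK13 (51 and 69), PTGES3 (44 and 30) and ZEB1 (39 and 17). PTGES3 is the HSP90 cochaperone p23, CDK13 a kinase of the transcription machinery and ZEB1 a zinc finger repressor. The ZEB1 circRNA had a share ratio of 3.04 (1.68 to 5.74) and that of CDK13 one of 0.981 (0.669 to 1.43).

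The most-read circRNAs of the cortex shared 3 of their 10 with the cerebellum, those of CDR1, RIMS2 and CSPP1. CSPP1 is a protein of centrosomes and cilia, and its circRNA (chr4:73740572-73750002) had 3.31 RPM in the cerebellum (52 reads), 1.99 in the brain stem, 1.55 in the basal ganglia, 2.27 in the hippocampus and 2.56 in the cortex (138 reads). Its level was close to even, at a ratio of 1.30 (0.923 to 1.79), so that its share of the cerebellum pool was 0.50 times that of the cortex (0.356 to 0.693). Besides ENSSSCG00000026340, SYN2 and TLK1, the cortex list held circRNAs of ENSSSCG00000028803 (18 reads in the cerebellum and 151 in the cortex), ENSSSCG00000025844 (25 and 131), a further TLK1 junction (20 and 84) and ITFG1 (9 and 74). The level ratios of these 4 were 0.410, 0.656, 0.818 and 0.418, and only those of ENSSSCG00000028803 (0.236 to 0.670) and ITFG1 (0.184 to 0.837) had intervals below 1.

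The host gene lists were described by their summed reads. Hosts of the list for the cell cycle, centrosome and mitosis had the share ratio farthest from 1 among the 8 functional lists. They held 3.07% of circRNA reads in the cerebellum and 6.26% in the cortex, a share ratio of 0.491 (0.412 to 0.582). The list's summed level was higher in the cerebellum, at 11.8 RPM against 9.32 RPM in the cortex (level ratio 1.27, interval 1.07 to 1.51, against 2.59 for all circRNAs). With TMM it was lower (0.393, against 0.801 for all circRNAs), and so it was in reads unscaled for depth, as DESeq2's factors left them (0.370, against 0.754). Of its 6 circRNAs compared, 1 was higher and 5 lower on the share scale, with a median log2 ratio of -1.21, against -0.09 over all 109. Most of its reads came from CDK13, CSPP1 and TLK1, whose proteins act in transcription, at cilia and in chromatin assembly as well as in dividing cells. The list of Hedgehog, Wnt, TGF-beta and BMP signalling held 1.98% of reads in the cerebellum and 1.41% in the cortex (share ratio 1.41, interval 1.08 to 1.84). Its 2 compared circRNAs, of ZEB1 and of SMAD4, were both higher on the share scale, against 46.8% of all 109, and without its most-read circRNA the list's share ratio was 1.12. SMAD4, the common mediator of TGF-beta and BMP signals, shares its circRNA with ELAC1 by overlap, with 1.34 RPM in the cerebellum (21 reads) and 0.315 RPM in the cortex (17 reads).

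Hosts of the synapse and excitability list held a similar share in both libraries, 7.86% in the cerebellum and 7.54% in the cortex (share ratio 1.04, interval 0.922 to 1.18), and 30.3 RPM against 11.2 RPM (level ratio 2.70). Of the list's 10 circRNAs compared, 7 were higher and 3 lower on the share scale, against 51 and 58 of all 109, and 1, that of SYN2, was past 4-fold lower. The chromatin list held 3.45% in the cerebellum and 3.27% in the cortex (share ratio 1.05, interval 0.875 to 1.27), with HDAC2, a histone deacetylase, higher (22 reads in the cerebellum and 9 in the cortex, share ratio 3.24, interval 1.44 to 8.0) and ATRX, a chromatin remodeller, past 4-fold lower (5 and 30 reads). For RNA binding and splicing the shares were 2.28% and 2.46% (share ratio 0.925, interval 0.739 to 1.16), and all 3 circRNAs compared were lower, among them RBM6 with 26 reads in the cerebellum and 49 in the cortex (share ratio 0.704, interval 0.420 to 1.16). For axon guidance, migration and adhesion the share ratio was 1.14 (0.904 to 1.43), with the circRNAs of RELN and VCAN, a matrix proteoglycan (13 reads in the cerebellum and 12 in the cortex), higher and DOCK3 past 4-fold lower.

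For ubiquitin and protein turnover the share ratio was 1.16 (0.910 to 1.49), with UBE2D2 past 4-fold higher and MARCH6 (9 reads in the cerebellum and 13 in the cortex) and MIB1 (4 and 18), both ubiquitin ligases, lower. On the share scale none of these 5 lists differed beyond counting error. On other scalings all circRNAs move alike: the ratio of all circRNA reads was 2.59 on the level scale, 0.801 with TMM and 0.754 with DESeq2 scaling, which left the reads as counted. A list's ratio stands to these as its share ratio stands to 1. The list of circRNA hosts known in other mammals held 13.3% in the cerebellum and 11.2% in the cortex (share ratio 1.19, interval 1.08 to 1.31), but the share ratio was 0.873 without CDR1, and the ratio was 0.955 with TMM and 0.898 with DESeq2 scaling, above the values of all circRNAs on both. Of its 14 circRNAs compared, 8 were higher and 6 lower on the share scale, against 51 and 58 of all 109.

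Among the cell type marker lists, only those of cerebellar granule cells and of Purkinje and other cerebellar neurons had a circRNA among the 109. The granule cell list held 1.47% of reads in the cerebellum (89 reads) and 0.871% in the cortex (70 reads), a share ratio of 1.69 (1.22 to 2.34), and 77 of these reads in the cerebellum and 68 in the cortex were the RELN circRNA. Its summed host FPKM over 5 genes was 308 in the cerebellum, 67.5 under the heading Cortex E115 and 56.0 under Hippocampus E115. The Purkinje list had 6 reads in the cerebellum and 29 in the cortex (share ratio 0.275, interval 0.0932 to 0.673), and all cortex reads came from 1 circRNA of ATP2B2, a plasma membrane calcium pump (3 reads in the cerebellum and 29 in the cortex). Under the heading Cortex E115 the list's summed host FPKM over 5 genes ran the other way, at 200.2 in the cerebellum and 70.9 there. All 5 genes were higher in the cerebellum against that column. Against the cortex table ATP2B2 turned, with 49.6 FPKM in the cerebellum and 69.4 FPKM in the E115 cortex. KIT had 32.4 FPKM in the cerebellum and 31.6 FPKM in the cortex table, and PLCB4 32.8 and 8.26 FPKM. RORA and DAB1 had no value in the cortex table. The lists of cortical neurons (3 and 13 reads), oligodendrocytes (8 and 12), astrocytes (2 and 4) and vascular, blood and meningeal cells (0 and 3) were too thin to compare. Of the oligodendrocyte genes, QKI, an RNA-binding protein that promotes circRNA formation in human cells, had 329 FPKM in the cerebellum and 251 FPKM in the E115 cortex of the cortex table, against 972 FPKM under the heading Cortex E115. The part of cell composition in the circRNA differences was not tested.

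Several circRNAs of the same host were not always used alike. In 10 hosts with at least 2 circRNAs of 20 reads each in the pair, the intervals of the within-host share of the most-read one were apart between cerebellum and cortex in 5. This share is taken over the reads of such circRNAs only, and other circRNAs of the host are left out. RIMS1 had 4 such circRNAs, which share junction ends. The one at chr1:58484449-58517592 held 29.8% of the reads of these 4 in the cerebellum (25 of 84 reads) and 68.6% in the cortex (70 of 102). The one at chr1:58468249-58490977 held 34.5% in the cerebellum (29 reads) and 9.80% in the cortex (10 reads). The 84 and 102 reads of these 4 RIMS1 circRNAs, from libraries of 15.7 M and 53.99 M reads, were thus split differently among the circles. In MORC3, a chromatin-binding ATPase, the circRNA at chr13:210044909-210047801 held 75% in the cerebellum (24 of 32) and 32.6% in the cortex (15 of 46), and the one at chr13:210039530-210045037 held the rest. In FAM188A the circRNA at chr10:50688302-50702358 held 80.6% in the cerebellum (29 of 36) and 43.8% in the cortex (21 of 48).

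In each of these 3 hosts the circle with most reads in the cerebellum was not that of the cortex. The lead was within counting error for RIMS1 in the cerebellum (29 and 25 reads, intervals 24.5 to 45.7% and 20.3 to 40.7%). It was so too for FAM188A in the cortex (27 and 21 reads, intervals 41.2 to 70.5% and 29.5 to 58.8%). The 5 hosts RIMS2, CDK13, ZCCHC11, TLK1 and the line overlapping PRKAR2A had overlapping intervals for their most-read circRNA. In RIMS2 it held 89.7% in the cerebellum and 89.4% in the cortex. In TLK1, where 3 circRNAs share the end at 86671532, it held 58.8% in the cerebellum and 38.7% in the cortex, but the one at chr15:86639052-86671532 held 11.8% in the cerebellum (4 of 34, interval 3.30 to 27.5) and 44.2% in the cortex (96 of 217, interval 37.5 to 51.1).

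The circRNAs past 4-fold lower on the share scale had junction ends far apart more often than all those compared. This relation was looked for after the values had been seen. Genomic length is the distance between the junction ends, introns included, and says nothing direct of the length of the circle. Of the 17 circRNAs past 4-fold lower on the share scale, 9 spanned 40 kb or more, with a median of 41525 bp, against 0 of the 7 past 4-fold higher (median 10811 bp) and 25 of all 109 (median 17672 bp). The median log2 share ratio was 0.96 for the 5 circRNAs under 1 kb, 0.16 for the 33 from 1 to 10 kb, -0.10 for the 46 from 10 to 40 kb and -1.63 for the 25 of 40 kb or more. On the level scale the same medians were 2.34, 1.53, 1.27 and -0.26. Higher on the share scale were 5, 18, 20 and 8 circRNAs of these groups, with those of RIMS2 and RELN among the last.

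Over all circRNAs, reads from junctions 40 kb or more apart made up 17.2% in the cerebellum (interval 16.2 to 18.2) and 25.1% in the cortex (24.2 to 26.1). The brain stem had 21.1%, the basal ganglia 21.4% and the hippocampus 18.1%, so the cortex was the highest of the 5 and the cerebellum the lowest, with an interval that overlapped that of the hippocampus. Without the 5 most-read circRNAs of that length the shares were 12.8% in the cerebellum and 17.8% in the cortex. The summed level of circRNAs under 40 kb was 2.86 times as high in the cerebellum as in the cortex, and that of circRNAs of 40 kb or more was 1.77 times as high. At E60 the order was the opposite, with 18.1% in the cerebellum and 10.6% in the cortex.

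**Figure D4:**
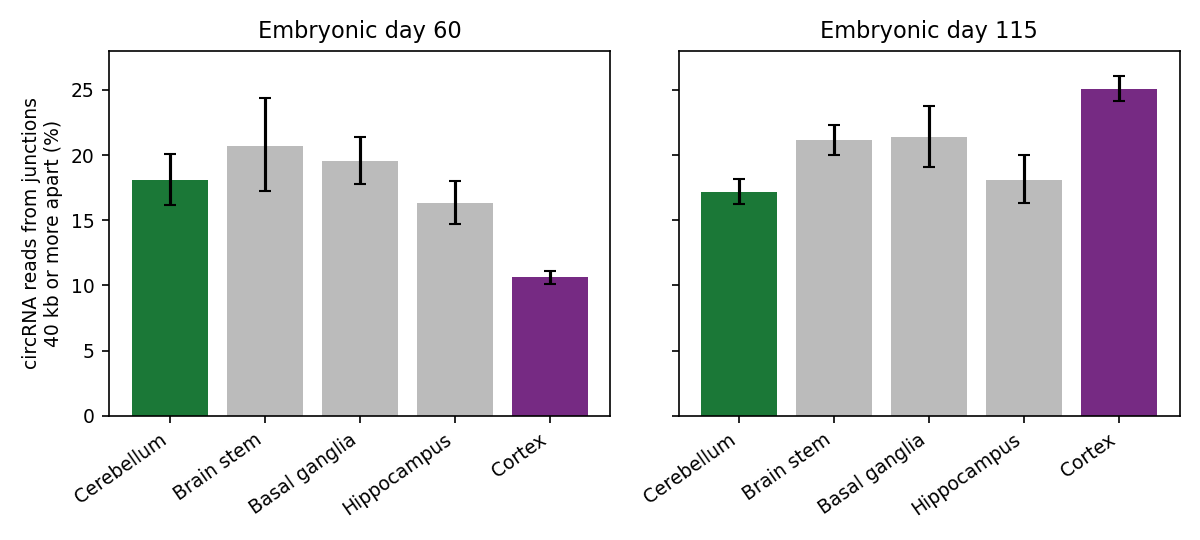
Percent of circRNA reads from junctions 40 kb or more apart on the genome (linear axis from 0) in the 5 brain regions at E60 (left) and E115 (right), 1 library a bar, with 95% Clopper-Pearson intervals. The E115 cerebellum stands at 17.2%, below the E115 cortex at 25.1%; at E60 the cerebellum stands at 18.1%, above the cortex at 10.6%.

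The circRNA ratios were set beside the FPKM ratios of their host genes, the deposited level of the gene's transcripts per length. With the columns as headed, 98 circRNAs of 86 hosts could be compared, and the circRNA ratio (level scale) lay above the host ratio in 64 and below it in 34. The median log2 ratio was 1.28 for the circRNAs and 0.55 for their hosts. On the share scale, which takes out the difference in summed circRNA, the order turned, with 31 above and 67 below as headed and 26 above and 68 below with the cortex table. Only the circRNA ratios were moved, all by 1.37 on the log2 scale, and the host ratios were left as they were. The turn follows from that step and is no separate result on circRNA against host. With the E115 cortex FPKM of the forebrain and cortex table, which was normalized separately, 94 circRNAs of 83 hosts could be compared, with 68 above and 26 below and a median of 0.31 for the hosts. In that comparison circRNA and host were both higher in the cerebellum for 51 circRNAs and both lower for 19. The circRNA was higher with a lower host for 17, and lower with a higher host for 7. That order turned with the column as headed, at 13 and 18, and with the column headed Hippocampus E115, at 5 and 16. With the column headed Hippocampus E115 the circRNA ratio lay above the host ratio in 64 and below it in 34. Over all host genes of the table the median log2 FPKM ratio was 0.08 with the column as headed (1675 hosts) and -0.08 with the cortex table (1378 hosts). Across these circRNAs, which share libraries and often hosts, Spearman's rho was 0.30 as headed, 0.40 with the cortex table and 0.48 with the column headed Hippocampus E115, given as a description.

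On the level scale, the circRNAs farthest above their hosts were near the top of the list by ratio. RNF219 had 12.3 FPKM in the cerebellum, 8.17 FPKM under the heading Cortex E115 and 10.3 FPKM in the cortex table, beside a circRNA level ratio of 48.1. UBE2D2 had 51.7 FPKM in the cerebellum, 62.7 under Cortex E115 and 64.9 in the cortex table, so that the host was slightly lower and its circRNA higher. NAA15 had 16.4 FPKM in the cerebellum, 13.3 under Cortex E115 and 13 in the cortex table. In these 3 genes the host levels differed far less than the circRNA levels, whichever cortex value was used. RIMS1, with 41.1 FPKM in the cerebellum and 50.7 FPKM in the cortex table, gave a pair of circRNAs far above their host. With the column as headed, those of C9orf40 (27.2 FPKM in the cerebellum and 15.5 FPKM under Cortex E115) and STXBP3, a syntaxin-binding protein (9.57 and 25.5 FPKM), stood in that place.

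Farthest below their hosts were the circRNAs of TLK1 and U6, among others, with either cortex value. TLK1 had 34.3 FPKM in the cerebellum, 24.6 under Cortex E115 and 35 in the cortex table. The low TLK1 circRNA of the cerebellum thus came from a host of similar or higher FPKM there. The name U6 was listed at 33.2 FPKM in the cerebellum and at 0 for the cortex in both tables, for which no fold is given. With the cortex table, SUPT20H (43.6 FPKM in the cerebellum and 12.9 FPKM in the cortex) and CSPP1 (60.3 and 7.75 FPKM) also stood far below their hosts. Under the heading Cortex E115, SUPT20H had 40.5 FPKM and CSPP1 62.9 FPKM, with which the CSPP1 circRNA lay above its host, by 0.44 on the log2 scale. With the column as headed ATP2B2 (49.6 and 19.1 FPKM) and ENSSSCG00000027460 (1.88 and 7.11 FPKM) stood far below. In the cortex table their cortex values were 69.4 and 13.5 FPKM. With these, the log2 ratio of circRNA minus that of host was -0.81 for ATP2B2 and -1.59 for ENSSSCG00000027460.

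**Figure D5:**
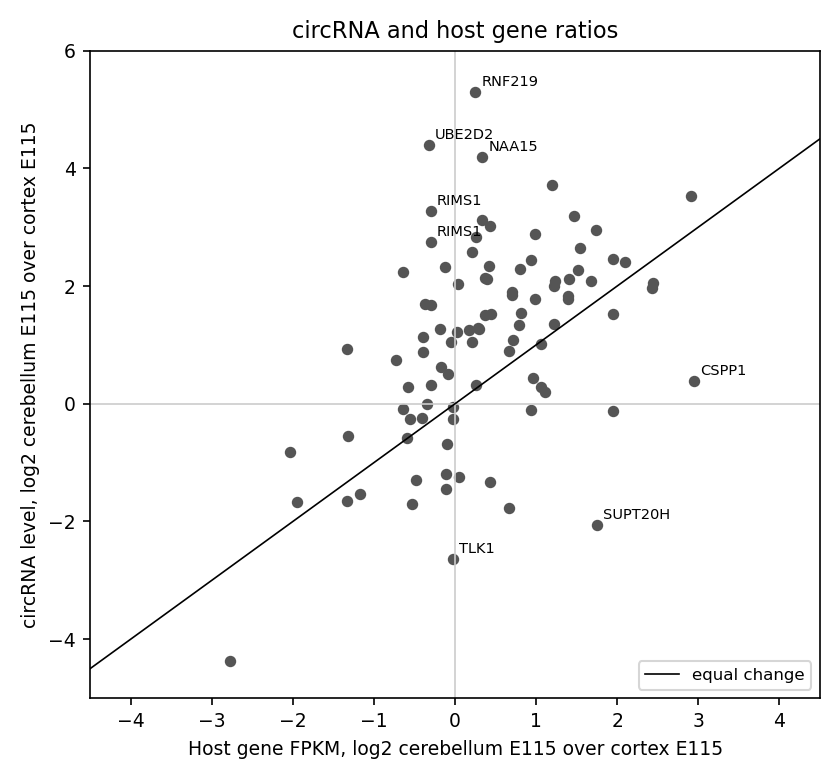
log2 ratio of circRNA level (vertical, 0.5 reads added) against log2 ratio of host FPKM (horizontal, 0.1 FPKM added), E115 cerebellum over E115 cortex, 1 point a circRNA, with the cortex FPKM of the forebrain and cortex table and without the line named U6. Points above the solid line of equal change are circRNAs whose ratio lay above that of their host, as RNF219 and UBE2D2 did, and those below it include TLK1, SUPT20H and CSPP1, the last of which lies above with the column as headed.

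The same 2 regions at E60 were used as other libraries that the E115 values did not use. With at least 10 reads in the E60 pair, 89 of the 109 circRNAs had a share ratio at E60. With 0.5 reads added to each count, 51 were higher in the cerebellum (57.3%) and 38 lower (42.7%), with a median log2 ratio of 0.29, and with no reads added 43 were higher and 46 lower. Of the 7 circRNAs past 4-fold higher at E115, 6 could be read at E60, and with reads added 5 of these were higher there too (median log2 ratio 0.74), or 4 with no reads added. Of the 17 past 4-fold lower at E115, 9 could be read at E60, and 5 were lower there (median log2 ratio -0.28), or 6 with no reads added. RNF219 had 1.07 RPM in the E60 cerebellum (11 reads) and 0.654 RPM in the E60 cortex (14 reads), a share ratio of 7.39 (3.04 to 17.5). TLK1 (86639052 to 86671532) had 0.194 RPM in the E60 cerebellum (2 reads) and 7.75 RPM in the E60 cortex (166 reads), a share ratio of 0.113 (0.0136 to 0.416). These 2 kept their direction at both days with share ratio intervals that did not reach 1. The same held for the share ratios of C9orf40 (3.83, 1.72 to 7.98) and PHIP (3.45, 1.56 to 7.08), but not for their levels. At E60, C9orf40 had 1.07 RPM in the cerebellum and 1.26 RPM in the cortex, and PHIP 1.07 and 1.40 RPM.

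The circRNAs of NAA15 and HDAC2 did not keep their direction beyond counting error. NAA15 had 0.778 RPM in the E60 cerebellum (8 reads) and 5.79 RPM in the E60 cortex (124 reads), a share ratio of 0.607 (0.256 to 1.23). HDAC2 had 0.778 RPM in the E60 cerebellum (8 reads) and 14.5 RPM in the E60 cortex (311 reads), a share ratio of 0.242 (0.104 to 0.483), against 3.24 at E115. CDR1 was higher in the cerebellum at both days, with 10.3 RPM in the E60 cerebellum (106 reads) and 3.04 RPM in the E60 cortex (65 reads), and so was RELN, with 2.53 RPM (26 reads) and 0.981 RPM (21 reads). Their E60 share ratios were 15.3 (11.2 to 21.2) and 11.6 (6.30 to 21.8). The level of these circRNAs thus differed in the same direction at both days, although the summed circRNA level of the cerebellum was above that of the cortex at E115 and below it at E60.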

How the data were processed

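The samples and the lists were chosen with earlier results of these data known. RNA longer than 200 nt was cleared of ribosomal RNA (Ribo-Zero) before ScriptSeq v2 library preparation, per the labels; animals are not named. Backsplice reads were deposited by the authors as whole counts per library. The authors deposited RPM values beside them, and FPKM values of host genes and the genomic length, another deposited value, stand in the same tables. The submitters' processing notes name Trim Galore, TopHat2, Cufflinks, Cuffdiff and the build Sscrofa10.2, or susScr3, with no version of a tool; the circRNA caller is not given in the sources used here. Positions are on that build, counted from 1, and exon, intron and UTR positions and sequences were not analysed here. Value columns that match no sample numbered 0.

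Library totals are the median of reads divided by RPM where reads were above 1; what reads they count is not stated. Lines whose reads do not add up to their total (191 of 3967) were left out. Levels have exact Poisson intervals, shares Clopper-Pearson intervals and ratios exact conditional intervals, all 95%. Reads carry no molecular identifiers, so intervals and floors (3 reads) cover counting error only. Log2 ratios and the 4-fold rule add 0.5 reads to each count; printed ratios do not. Printed were the 10 most-read circRNAs of each library, the 10 with the highest and the 10 with the lowest ratio, up to 4 circRNAs a list by reads, hosts with several circRNAs, and the 5 in each direction farthest from their host; circRNAs with 10 or more reads in 1 library and 0 in the other were added after their values were seen. Host FPKM ratios add 0.1 and need 1 FPKM in 1 of the 2 libraries and 1 host name. Of 471 Ensembl IDs in the table, 184 had a symbol; 318 lines have several host names. Both tables were normalized separately. Because of the heading conflict, the cortex FPKM of the forebrain and cortex table was added after the data had been seen. Calculations used Python 3.11.15, NumPy 2.4.6, pandas 2.3.3 and SciPy 1.17.1 and were tested on simulated data. edgeR 4.0.16 and DESeq2 1.42.0 in R 4.3.3 gave only alternative scaling factors, since 1 library a side allows no test. The DESeq2 factors were 1 for both libraries and thus corrected no difference in depth. Some circRNAs and genes that these rules name are not reported here.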

Additional observations from a re-analysis of the deposited data

Results flagged for a closer look

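The summed circRNA level was compared between cerebellum and cortex at both days, and the ratio was 2.59 at E115 and 0.221 at E60. It lay on opposite sides of 1. The MSH3 circRNA had a share ratio, cerebellum over cortex, of 0.130 at E115 and 11.8 at E60, where the cerebellum had 5 reads and the cortex 4. The ENSSSCG00000026340 circRNA had share ratios of 0.131 at E115 and 2.24 at E60. With 1 library for each region and day, these differences between the days were not tested. The lines left out because their reads do not add up to the stated total held 414 reads of the E115 cerebellum (6.40% of its reads) and 811 of the E115 cortex (9.17%), and the causes were not tested.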

How the results depend on the processing

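Of 91 alternatives, 54 left a result within its limits, 36 moved it and 1 turned a ratio whose interval had excluded 1; those on genomic length, the cortex FPKM, the share scale for hosts and E60 counts with no reads added were chosen after seeing the data. With the share scale for the circRNAs and unchanged host ratios, 31 circRNAs lay above and 67 below their hosts. The ratio of summed levels was 2.86 for circRNAs under 40 kb and 1.77 for those of 40 kb or more. With at least 1 read, 1658 circRNAs were detected in the cerebellum and 2037 in the cortex, and with at least 5 reads 279 and 309. On the level scale, the circRNAs past the fold were 97 higher and 12 lower with a minimum of 10 reads, 10 and 1 with 50 reads, 1020 and 28 with no minimum, 65 and 14 at 2-fold, and 13 and 1 at 8-fold. The order of higher and lower turned with TMM, at 6 and 20, and with 1 read added 2 were lower. That order turned too with DESeq2 size factors, at 5 and 23, but these were 1 for both libraries and corrected no difference in depth. On the share scale they were 26 higher and 39 lower with 10 reads, 1 and 8 with 50 reads, 370 and 259 with no minimum, which turns the order, 24 and 33 at 2-fold, and 2 and 8 at 8-fold. A looser minimum or fold admits more circRNAs by its construction. With no minimum, the reads added and the unequal totals of the libraries also set which side passes the fold at the lowest counts. Without its most-read circRNA, the share ratio was 7.96 for the granule cell list and 0.221 for oligodendrocytes, both on few reads. The RELN circRNA gave 77 of the 89 cerebellum reads and 68 of the 70 cortex reads of the granule cell list. The oligodendrocyte list had 8 and 12 reads in all. Turned to below 1 were axon guidance, migration and adhesion (0.889), synapse and excitability (0.925), ubiquitin and protein turnover (0.993) and circRNA hosts known in other mammals (0.873). Of these 4, the interval at all circRNAs of the list had excluded 1 for the last alone. No paired analysis was possible because each group had 1 library. Depth limits circRNAs of few reads, with floors of 0.191 RPM in the cerebellum and 0.0556 RPM in the cortex.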
